A study of Mus musculus with 15 samples.

Results

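The comparison of MC903 with no treatment in skin of mice labelled Trpv3 knockout was described across 16235 genes. These are the genes with an FPKM (fragments counted on a gene, scaled by its length and by library size) of at least 0.5 in at least 3 of the 6 libraries concerned, out of 54532 genes in the skin table and 17646 tested over all 12 skin libraries. Of the 16235, 13970 met the minimum in all 6 libraries, while 302 met it only through the MC903 libraries and 365 only through the untreated ones; genes of these last kinds were bound to differ between the groups in level.

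Each group held 3 libraries of poly-A RNA from whole skin. The untreated group is labelled with the genotype Trpv3-knockout and non-treatment, and the treated group carries the same genotype label and received MC903 for 7 days. Both groups therefore share the knockout label, and the wild type libraries, 3 untreated and 3 given MC903, entered the fit and the comparison of responses at the end. The series describes conditional knockout mice, but the labels of these libraries name no Cre driver, no deleted exon, no vehicle and no age. Nor do they state that each of the 3 libraries of a group is a separate mouse; the p-values therefore speak only of the spread among libraries, which may be technical.

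MC903, or calcipotriol, is an analogue of vitamin D that, painted on mouse skin, makes keratinocytes release the alarmin TSLP and is used to model atopic dermatitis. TRPV3 is a heat-activated calcium channel of keratinocytes, PAR2 (gene F2rl1) is a receptor that skin serine proteases switch on by cutting it, and IL-33 is an alarmin that signals to mast cells, basophils and lymphocytes through ST2 (gene Il1rl1). The series places these molecules in 1 axis between keratinocytes, mast cells and nerves.

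The genotype label was checked first on the targeted gene. Trpv3 (ENSMUSG00000043029), which mm10 places on chromosome 11 from 73267388 to 73300363, read an FPKM of 3.17, 3.64 and 2.62 in untreated replicates 1, 2 and 3 labelled knockout, against a mean of 1.97 ± 0.795 (SD, n = 3) in untreated wild type skin. Its RNA was thus not lower in the untreated libraries that carry the knockout label. Because a conditional deletion can leave most of a transcript in place and can spare other cells, a level over the whole gene does not show which genotype these libraries have, and "labelled knockout" is meant throughout. The skin markers Krt5, Krt14, Krt1, Krt10, Col1a1 and Col3a1 were at an FPKM of 82.4 or more in each of the 6 libraries. The 6 libraries held 17797944 to 18485698 reads on genes, and a single read gave a gene of 1 kb an FPKM between 0.0512 and 0.0553.

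A large part of the transcriptome differed between the MC903 and the untreated libraries. The control is labelled non-treatment and no vehicle group is named, so MC903 and its application cannot be told apart. Of the 16235 genes 8272 passed an adjusted p of 0.05, 4334 of them higher and 3938 lower after MC903, by limma on log2(FPKM + 0.5) with Benjamini-Hochberg adjustment over all genes tested. Over the 17646 genes tested the share that passed was 47.9%, with 25.0% higher and 23.0% lower, and the median log2 fold change was -0.0014; counts in the gene groups below are to be read against these shares. "Rose" and "fell" are used below for genes that passed. At least 2-fold changes made up 2249 of the passing genes (1188 higher, 1061 lower), against 12.9% of all genes tested. Changes of at least 16-fold were found for 84 genes that rose and for 5 that fell. The groups did not overlap for 5521 genes that were higher and 5220 that were lower, against 63.0% of genes tested in either direction.

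The balance between higher and lower calls depended on the scaling between libraries. On the deposited scale 52.4% of the calls were higher, and after rescaling to TPM, which gives each library the same sum and lowered the median log2 fold change by 0.175, 33.8% of 8427 calls were. The MC903 libraries held more summed FPKM, 347798 to 354977, than the untreated ones, 302464 to 312604. Among the 451 genes with a mean FPKM of at least 100, 209 rose and 84 fell. Among antisense transcripts 33 of 313 rose and 92 fell, and among long intergenic RNAs 56 of 341 rose and 91 fell; the counting is not stated to use strand, so reads of a gene and its antisense partner cannot be told apart.

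Cyp24a1 and S100g, targets of the vitamin D receptor, rose in the libraries labelled knockout. Cyp24a1, the enzyme that breaks down active vitamin D and the classic target of its receptor, had a value of 0 in each of the 3 untreated libraries and reached an FPKM of 1565, 1612 and 977 after MC903 (log2 fold change 11.40 ± 0.18 (SE), adjusted p = 2.48e-11). S100g, a calcium-binding protein induced by vitamin D in gut, went from 0.320, 0 and 0 to 24.2, 24.9 and 23.3. Both genes were near or at 0 without treatment and high in all 3 treated libraries. They met the FPKM minimum only through the MC903 libraries, so they could only be counted as higher.

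Of 10 measured genes of vitamin D metabolism and response 3 rose and 3 fell. Hr, a corepressor that binds the vitamin D receptor, rose as well (log2 fold change 0.95 ± 0.15 (SE), adjusted p = 4.94e-04). The 3 retinoid X receptors, with which the vitamin D receptor pairs, made up the genes that fell, with log2 fold changes of -0.67 for Rxra, -0.85 for Rxrg and -0.44 for Rxrb. The call of Rxrb was narrow (adjusted p = 0.043 by limma) and was lost without each of the 6 libraries in turn, with an adjusted p of 0.074 to 0.11. The receptor gene Vdr read 8.03, 8.93 and 6.78 untreated and 9.74, 11.3 and 9.14 treated and did not pass (adjusted p = 0.16). It passed under 3 of 25 alternative settings, among them the 2 groups labelled knockout fitted alone.

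Of the 9 genes of the TRPV3, PAR2 and IL-33 axis 7 rose and 1 fell. As for 63.0% of all genes tested, the untreated and treated libraries did not overlap for any of these 9. The alarmins moved most among them. Tslp had an FPKM of 1.31, 1.90 and 1.94 untreated and 387, 487 and 291 after MC903, a log2 fold change of 7.44 ± 0.33 (SE) (adjusted p = 7.99e-08). Il33 rose 7.58-fold, from 8.67, 7.99 and 8.82 to 54.6, 71.7 and 66.8 (log2 fold change 2.84 ± 0.19 (SE), adjusted p = 1.12e-06). Each treated library was above each untreated one by a wide margin for both alarmins.

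**Figure D1:**
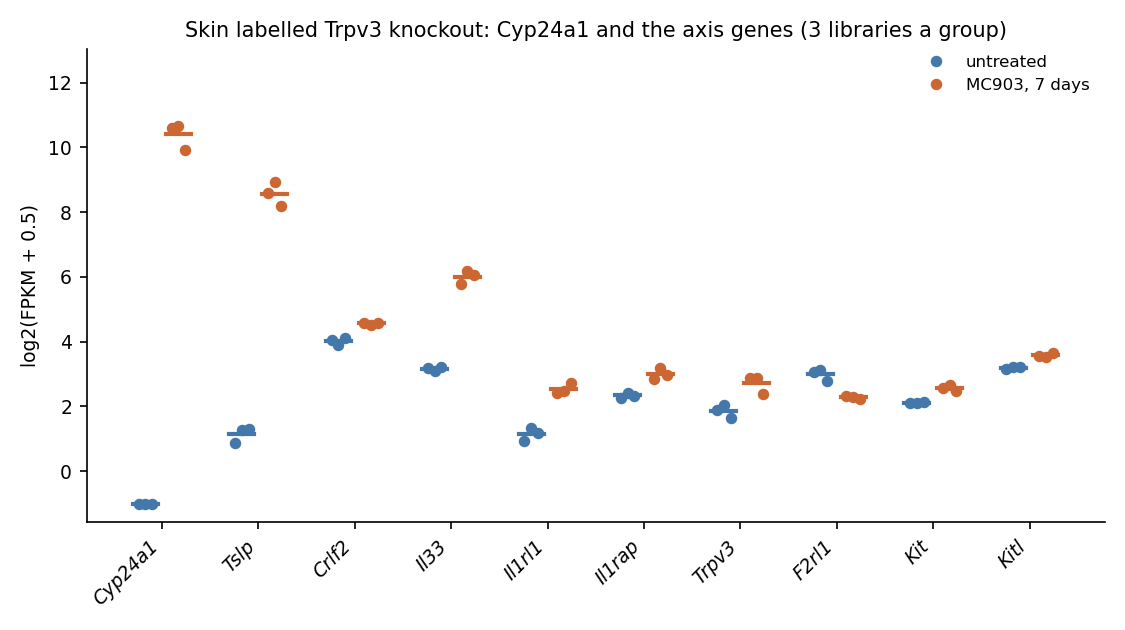
FPKM of Cyp24a1 and the 9 axis genes in the 6 libraries labelled knockout, on a log2(FPKM + 0.5) axis; each point is 1 library and each bar the mean of 3. The untreated and MC903 points separate for all 10 genes, as they did for 63.0% of all genes tested, and F2rl1 is the one gene whose treated points lie below.

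The receptors of these alarmins changed by smaller amounts. Il1rl1, which encodes the IL-33 receptor ST2, read 1.40, 2.01 and 1.75 untreated and 4.80, 5.02 and 6.05 treated (log2 fold change 1.38 ± 0.21 (SE), adjusted p = 3.15e-04). Its partner chain Il1rap went from 4.32, 4.86 and 4.53 to 6.64, 8.68 and 7.42 (log2 fold change 0.67 ± 0.13 (SE)). Crlf2, the TSLP receptor chain, read 16.1, 14.3 and 16.8 and then 23.6, 22.4 and 23.6 (adjusted p = 0.039). That call did not hold without any 1 of the 6 libraries, where the adjusted p was 0.061 to 0.11, or after rescaling to TPM (0.14).

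The channel and the protease receptor went in opposite directions. Trpv3 itself rose from 3.17, 3.64 and 2.62 to 6.82, 6.78 and 4.73, with a log2 fold change of 0.85 ± 0.22 (SE) (adjusted p = 0.0089). F2rl1 fell from 7.77, 8.15 and 6.46 to 4.46, 4.36 and 4.22, with a log2 fold change of -0.71 ± 0.21 (SE) (adjusted p = 0.015). Without untreated replicate 2 the fall of F2rl1 was 0.65 (adjusted p = 0.052), and it passed without each other library labelled knockout. Of the other protease-activated receptors F2rl2 rose by 0.80 and F2r by 0.49 on the log2 scale, F2r by 0.30 with an adjusted p of 0.056 after rescaling to TPM.

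For the mast cell axis, Kit, the receptor for stem cell factor, rose from 3.82, 3.76 and 3.89 to 5.39, 5.77 and 5.07 (log2 fold change 0.45 ± 0.13 (SE), adjusted p = 0.014). The call was lost after rescaling to TPM (log2 fold change 0.28, adjusted p = 0.12) and without MC903 replicate 2 (0.41, adjusted p = 0.054). Its ligand gene Kitl read 8.40, 8.73 and 8.89 untreated and 11.3, 11.1 and 12 treated and did not pass (adjusted p = 0.056), though it passed when the 2 groups were fitted alone (0.0019). Among the other TRP channels Trpv2 rose (log2 fold change 0.96) and Trpv4 fell (-0.69), while Trpv1 and Trpm8 stayed under the FPKM minimum and Trpa1 was listed at 0 in all 6 libraries.

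The epidermis showed the keratins of wounded and stressed skin. Krt6a, Krt6b, Krt16 and Krt17, which keratinocytes switch on in wounds and in hyperproliferative disease, all 4 rose, with a median log2 fold change of 6.22. Krt16 had an FPKM of 28.2, 17.9 and 8.20 untreated and 1389.7, 1606 and 1064 after MC903 (log2 fold change 6.33 ± 0.51 (SE), adjusted p = 4.11e-06). Krt6b went from 5.95, 5.61 and 1.51 to 934, 1179 and 785 (log2 fold change 7.79 ± 0.46 (SE)), and Krt6a rose 69.7-fold. Krt17, already at 133, 115 and 92.4 in untreated skin, where hair follicles express it, rose 4.99-fold. The groups did not overlap for any of the 4, as for 63.0% of all genes tested.

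**Figure D2:**
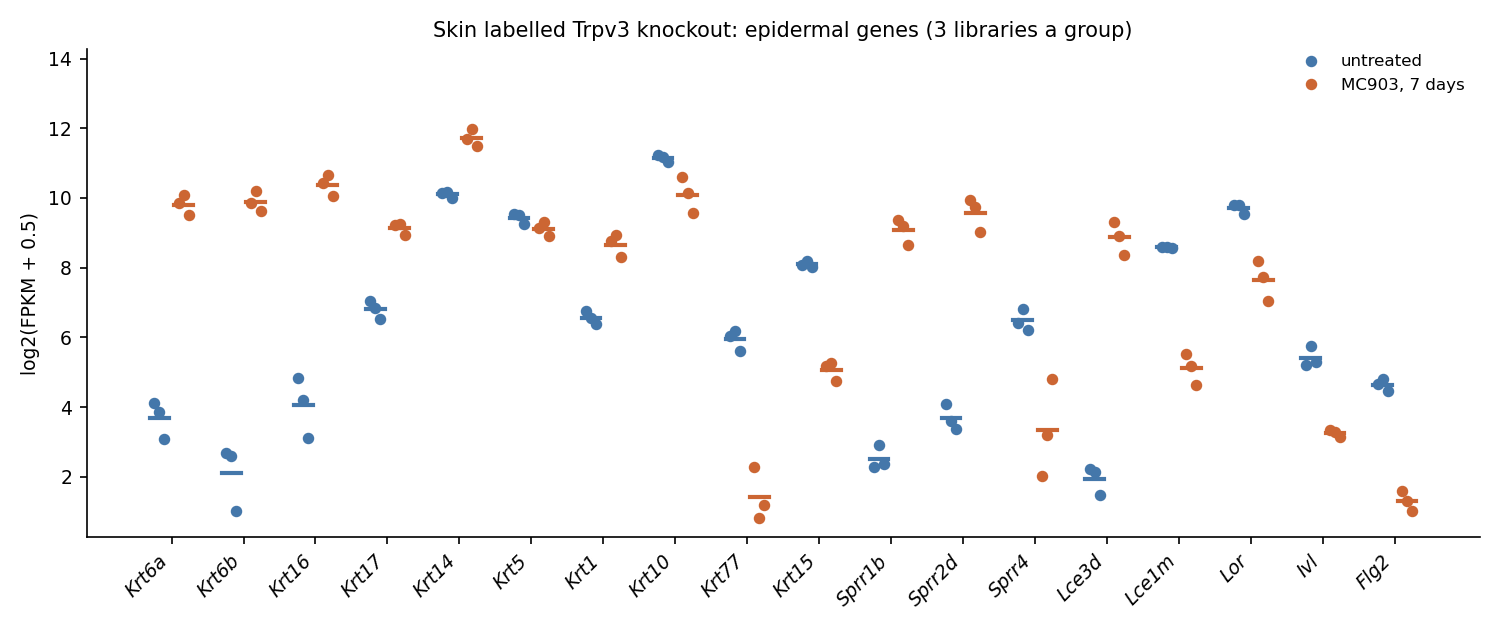
FPKM of 18 epidermal genes in each library, on a log2(FPKM + 0.5) axis; each point is 1 library and each bar the mean of the 3 libraries of a group. Stress keratins and most Sprr and Lce3 genes lie higher after MC903, and Krt77, Krt15, Lor, Ivl, Flg2, Lce1m and Sprr4 lie lower.

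Among the other epidermal keratins 3 of 14 rose and 8 fell, with a median log2 fold change of -0.82. The partners of the basal layer separated: Krt14 rose 3.11-fold, from 1137, 1149 and 1024 to 3327, 4066 and 2886, and Krt5, with which it forms filaments, read 747, 727 and 612 and then 560.4, 639.8 and 476 and did not pass (adjusted p = 0.18, and 0.048 after rescaling to TPM). The partners of the suprabasal layers separated in the same way. Krt1 rose 4.34-fold (log2 fold change 2.10 ± 0.34 (SE)), while Krt10 read 2382, 2333 and 2110.3 untreated and 1539, 1127 and 758 treated, lower in each treated library but with an adjusted p of 0.087 (0.0084 when the 2 groups were fitted alone). Krt77, a suprabasal keratin of quiet epidermis, fell from 65.3, 72.4 and 48.3 to 4.36, 1.28 and 1.79, and Krt15, a keratin of basal and follicle bulge cells, fell from 269, 293 and 259 to 36.1, 37.8 and 26.6 (adjusted p = 1.31e-06). Krt79, a keratin of the duct that joins hair canal and gland, fell from 92.8, 97.8 and 83.4 to 42.0, 42.2 and 36.3, and Krt8, a keratin of simple epithelia and Merkel cells, from 5.91, 5.35 and 7.05 to 2.42, 2.20 and 2.10. Krt80, which was the other keratin of the list to rise, went from 39.1, 44.1 and 33.7 to 66.3, 77.0 and 51.1 (adjusted p = 0.025, 0.094 after rescaling to TPM, and 0.059 to 0.099 without untreated replicate 1 or 3 or MC903 replicate 1 or 2).

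The small proline-rich proteins, which keratinocytes cross-link into the cornified envelope, had a higher median than the other envelope groups below. Of 14 measured Sprr genes 13 rose and 1 fell, and the median log2 fold change was 5.96. The promoters of 5 that rose and of Sprr4, the one that fell, are printed because many of the family hold a match to a loose form of the AP-1 motif. They are the 200 bases before the RefSeq transcription start (build GRCm38.p6), 5′ to 3′ on the gene's strand. The capitals mark each match to TGANTCA, a palindromic pattern searched on both strands. N stands for any base: the match of Sprr1b reads TGAATCA and the others printed read TGAGTCA.
Sprr1a: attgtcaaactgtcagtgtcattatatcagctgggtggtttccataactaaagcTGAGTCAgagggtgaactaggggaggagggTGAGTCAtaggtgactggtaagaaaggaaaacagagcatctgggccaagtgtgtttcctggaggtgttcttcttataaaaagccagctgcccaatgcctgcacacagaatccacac
Sprr1b: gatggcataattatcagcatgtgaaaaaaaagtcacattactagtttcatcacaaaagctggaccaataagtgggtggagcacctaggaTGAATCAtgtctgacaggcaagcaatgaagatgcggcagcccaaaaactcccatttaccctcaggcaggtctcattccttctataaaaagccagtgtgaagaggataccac
Sprr2b: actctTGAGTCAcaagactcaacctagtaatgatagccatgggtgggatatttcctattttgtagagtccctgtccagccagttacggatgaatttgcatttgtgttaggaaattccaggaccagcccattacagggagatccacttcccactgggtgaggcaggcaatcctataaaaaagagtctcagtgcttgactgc
Sprr2d: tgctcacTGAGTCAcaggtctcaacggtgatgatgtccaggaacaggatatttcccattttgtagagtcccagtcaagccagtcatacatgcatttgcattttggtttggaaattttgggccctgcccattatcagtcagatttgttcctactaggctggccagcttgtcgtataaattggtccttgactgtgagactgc
Sprr2f: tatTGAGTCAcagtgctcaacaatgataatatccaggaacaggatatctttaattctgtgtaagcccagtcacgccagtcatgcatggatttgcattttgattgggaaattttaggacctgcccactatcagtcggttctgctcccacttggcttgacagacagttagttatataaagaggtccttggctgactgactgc
Sprr4: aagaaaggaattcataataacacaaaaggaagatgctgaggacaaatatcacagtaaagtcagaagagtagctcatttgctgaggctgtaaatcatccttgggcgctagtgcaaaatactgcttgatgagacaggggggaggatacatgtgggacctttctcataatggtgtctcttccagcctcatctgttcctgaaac
These windows lie at chr3:92485882-92486081 (minus strand), chr3:92438780-92438979 (minus), chr3:92316505-92316704 (plus), chr3:92338940-92339139 (plus), chr3:92364987-92365186 (plus) and chr3:92500494-92500693 (minus). The matches begin 146 and 116 bases before the start of Sprr1a and 111 bases before that of Sprr1b, and 195, 193 and 197 bases before those of Sprr2b, Sprr2d and Sprr2f. Of 13 Sprr promoters listed by RefSeq, 9 held a match, against 5.48% of 32851 promoters. The Sprr2 genes are near-identical copies, so their promoters are not separate cases in this count. Sprr2a1, Sprr2a2 and Sprr2a3 held none and rose nonetheless; a match describes letters and not binding.

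The Sprr genes with the motif printed above spanned a wide range of starting levels. Sprr2d went from 16.4, 11.5 and 9.93 to 979, 863 and 524 and Sprr1b from 4.38, 7.07 and 4.66 to 665, 587 and 400.0. Sprr1a was already at 155, 144 and 111 in untreated skin and rose 6.77-fold. Sprr4 fell from 85.3, 112 and 74.4 to 3.58, 8.62 and 27.4 (log2 fold change -3.15 ± 0.59 (SE), adjusted p = 0.0012), and its treated libraries were uneven, with replicate 3 the highest. The Sprr2 genes are near-identical copies, so that reads may have been split among them and their single values are uncertain.

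Of 21 measured late cornified envelope genes 10 rose and 1 fell, with a median log2 fold change of 0.56. The 6 Lce3 genes, known to be switched on in damaged epidermis, all rose, and so did 4 Lce1 genes: Lce3d went from 4.17, 3.95 and 2.30 to 640.4, 482 and 329 and Lce3b from 1.46, 1.49 and 0.764 to 212, 161 and 89.5. Lce1m, abundant in untreated skin at 388, 386 and 377, fell to 45.3, 35.6 and 24.4 (log2 fold change -3.47 ± 0.25 (SE), adjusted p = 1.99e-06). MC903 replicate 3 was the lowest treated library for 21 of 21 Lce genes and 13 of 14 Sprr genes, and without it 16 Lce genes rose and 1 fell.

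Terminal differentiation genes moved in both directions, 8 of 21 higher and 6 lower, with a median log2 fold change of 0.22. Rptn, a filaggrin-like protein of the granular layer, rose 87.0-fold, from 5.12, 5.46 and 3.85 to 370.3, 522 and 363 (adjusted p = 1.24e-08). Cnfn and the transglutaminase Tgm3 also rose, by 2.47 and 3.0 on the log2 scale. Lor, the most abundant protein of the normal cornified envelope, fell from 889.8, 887 and 749 to 293, 212 and 132 (adjusted p = 6.76e-04). Ivl, another envelope precursor, fell from 36.2, 53.9 and 38.4 to 9.75, 9.24 and 8.38, and Flg2, a relative of filaggrin, from 24.6, 27.4 and 21.5 to 2.52, 1.96 and 1.53. Calml3, a calmodulin of differentiating keratinocytes, fell from 119, 117 and 111 to 32.2, 32.3 and 26.7, and Sbsn (suprabasin) from 103, 112 and 84.0 to 33.3, 42.0 and 32.7 (adjusted p = 6.53e-04). The envelope proteins Lor, Ivl and Flg2 were thus lower in each treated library while Rptn and the Sprr genes were higher. MC903 replicate 3 was the lowest treated library for all 21 genes of this group, and without it 9 rose and 6 fell, with a median log2 fold change of 0.38.

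Proteases of the outer epidermis rose. Of 14 measured kallikreins and other serine proteases 9 rose and 2 fell, with a median log2 fold change of 1.68. Klk6 went from 12.3, 12.9 and 9.90 to 350.3, 372 and 278 (log2 fold change 4.77 ± 0.28 (SE), adjusted p = 5.68e-07), and Klk13 from 3.05, 3.22 and 2.43 to 186, 195 and 134. Klk7, which cuts the desmosomal proteins that hold corneocytes together, rose 4.33-fold to 646, 777 and 537. Klk9 went from 16.8, 16.6 and 14.1 to 252, 254 and 178, Klk10 rose 3.88-fold, and Klk12 went from 0.471, 0.526 and 0.449 to 18.2, 18.8 and 12.7. Klk5, the trypsin-like protease that activates other kallikreins and can cleave PAR2, fell from 40.6, 41.2 and 36.2 to 23.1, 23.4 and 16.8 (log2 fold change -0.90 ± 0.24 (SE), adjusted p = 0.0093). MC903 replicate 3 was the lowest treated library for 13 of the 14 genes.

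Their inhibitors rose as well, 6 of 9 Kazal, Kunitz and whey acidic proteins, with 1 lower. Slpi, an inhibitor of neutrophil elastase, rose from 9.11, 6.80 and 6.32 to 284, 268 and 198 (adjusted p = 5.69e-08), and Spink5, the kallikrein inhibitor LEKTI lost in Netherton syndrome, rose 2.55-fold. Wfdc12 went from 2.31, 1.62 and 1.73 to 23.7, 33.2 and 21.7, and Spink12 from 0.457, 0.573 and 0.267 to 13.5, 12.8 and 11.4. Wfdc21 fell (log2 fold change -1.55). Clade B serpins were mixed, 3 of 13 higher and 4 lower: Serpinb2 rose by 1.40, while Serpinb12 and Serpinb7 fell by 2.52 and 2.28 on the log2 scale.

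Stefins, inhibitors of cysteine proteases, were among the largest increases. Of 12 stefin and cystatin genes 10 rose and 2 fell, with a median log2 fold change of 4.46. Stfa2 read 2.17, 2.0 and 1.94 untreated and 709, 782 and 822 after MC903 (adjusted p = 3.72e-09), and Stfa1 4.97, 4.65 and 2.72 and then 1043, 1117 and 1073. Several stefin genes are near-identical copies in 1 cluster and neutrophils express them too, so single values are uncertain. Cst6 and Cst3, cystatins of other families, fell by 1.09 and 0.77 on the log2 scale.

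Antimicrobial proteins rose, 9 of 12 with 2 lower. The beta-defensins split: Defb3 went from 1.49, 2.10 and 0.976 to 151, 118 and 98.4 (adjusted p = 2.28e-08) and Defb4 from 0.676, 0 and 0.236 to a mean of 85.5 ± 14.2 (SD, n = 3), while Defb8 fell from 34.6, 66.7 and 52.7 to 2.30, 0 and 3.58 and Defb6 from 224, 209 and 180.0 to 67.9, 83.9 and 90.3. S100a8 and S100a9, the subunits of calprotectin, rose 33.6-fold and 23.6-fold; without untreated replicate 1 the log2 fold changes were 6.47 and 5.76, against 5.61 and 5.01 with all libraries and 4.89 and 4.32 without untreated replicate 3. The untreated libraries were uneven, at 75.0, 18.5 and 7.97 for S100a8, and replicate 1 was the highest for both. Of 12 S100 genes 6 rose and 2 fell (1 fell without untreated replicate 1 or 2 or MC903 replicate 2 or 3, and 4 after rescaling to TPM). S100a7a, the mouse relative of psoriasin, went from 2.82, 1.75 and 1.75 to 16.7, 13.3 and 8.87, and S100a11, abundant in both groups, from 363, 357 and 276 to 747, 773 and 756 (adjusted p = 3.90e-05). Lcn2, an iron-scavenging protein that neutrophils also carry, rose 6.75-fold. Of 6 measured gasdermins 4 rose and 1 fell (none fell when any 1 of the 6 libraries was left out), led by Gsdmc with a log2 fold change of 3.22 ± 0.22 (SE).

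Junction and lipid genes were divided. Of 15 tight junction and connexin genes 4 rose and 6 fell. Gjb6 and Gjb2, connexins raised in hyperproliferative epidermis, rose 24.0-fold and 12.7-fold, while Gjb5 fell (log2 fold change -1.55) and Cldn23 fell from 8.67, 9.25 and 7.76 to 2.42, 1.74 and 1.32. Of 22 barrier lipid enzymes 8 rose and 5 fell: Degs2, a ceramide hydroxylase, and Ugcg, the glucosylceramide synthase, rose by 2.04 and 1.36 on the log2 scale, and Fa2h and Elovl6 fell by 1.66 and 1.51. Slc27a4, a fatty acid transporter needed for the barrier, fell from 88.4, 103 and 92.9 to 46.6, 46.9 and 34.4 (adjusted p = 3.80e-05).

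Genes that anchor the basal layer were divided. Of 10 genes that tie basal cells to the basement membrane 3 rose and 5 fell. The laminin receptor chain Itga3 rose from 8.65, 7.89 and 6.92 to 14.4, 16.2 and 13.5. Col7a1, the collagen of anchoring fibrils, fell from 9.17, 7.92 and 6.84 to 1.82, 1.82 and 2.16 (adjusted p = 9.63e-06). Col17a1, a collagen of hemidesmosomes, fell from 79.6, 80.2 and 70.1 to 45.2, 51.5 and 37.8, and Lamb3, a laminin chain, from 12.3, 11.5 and 12.6 to 7.22, 7.66 and 6.30.

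Ligands of the EGF receptor moved in both directions. Among 10 genes of the EGF family 4 rose and 3 fell. Epgn rose from 0.850, 1.45 and 0.297 to 80.3, 79.2 and 74.7 (adjusted p = 1.09e-07) and Areg from 0.927, 0.302 and 0.221 to 40.6, 36.3 and 27.0, whereas Btc fell from 2.81, 4.4 and 3.55 to 0.402, 0.245 and 0.490. Nrg1, a ligand of other receptors of the family, went from 0.0643, 0.0658 and 0.0467 to 1.43, 1.41 and 1.53, and Erbb2, a receptor, fell from 14.8, 16.7 and 14.8 to 10.5, 11.3 and 8.84 (adjusted p = 0.0017). Egfr, their receptor, did not pass (log2 fold change 0.15 ± 0.08 (SE), -0.03 after rescaling to TPM). Nrg1 met the FPKM minimum only through the MC903 libraries and could only be counted as higher. Btc met it only through the untreated libraries and could only be counted as lower. Cell cycle genes rose in 25 of 28 cases and fell in none, with a median log2 fold change of 1.01. Mcm5, part of the replication helicase, rose 3.53-fold (adjusted p = 3.98e-06), and Cdk1, which drives mitosis, 2.68-fold. Mki67, the proliferation marker, went from 7.75, 8.82 and 6.18 to 15.7, 16.8 and 14. The count of cell cycle genes that rose was 24 to 26 when each of the 6 libraries was left out, under the other scalings and by limma voom.

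In the plot of log2 fold changes by gene group, medians of the immune groups and of the stress keratins, Sprr genes, stefins and proteases lie above 0, and those of the dermis, glands, hair, fat, muscle and nerve below it.

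**Figure D3:**
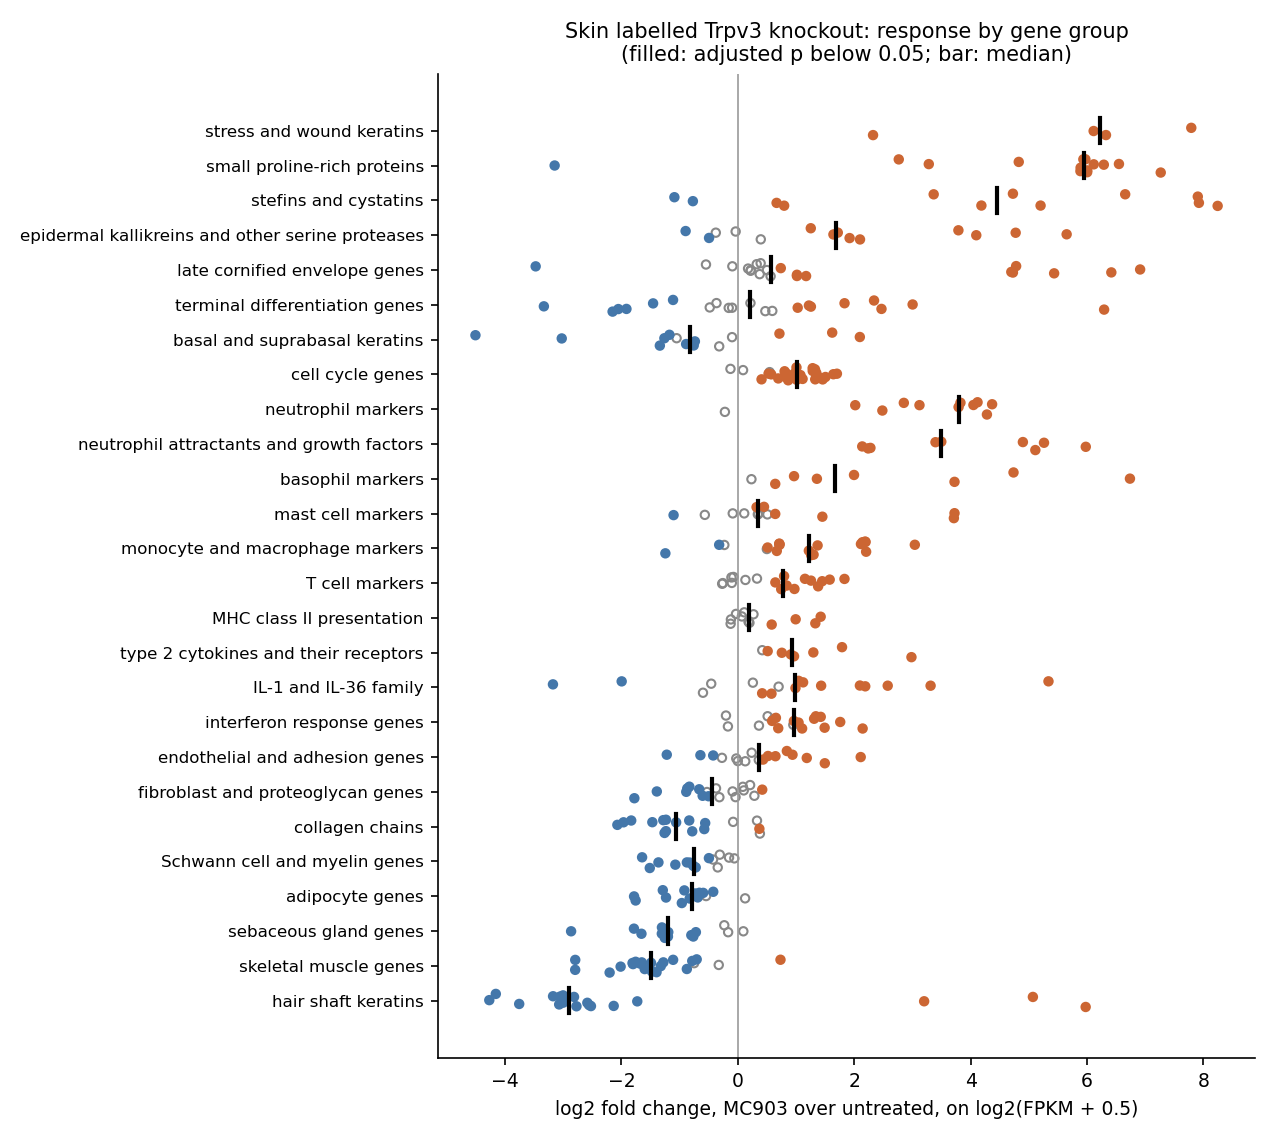
Log2 fold change, MC903 over untreated in skin labelled knockout, of the measured members of 26 gene groups; each dot is 1 gene, filled where the adjusted p was below 0.05, and the bar is the median of the group. Medians run from 6.22 for the stress keratins to -2.90 for the hair shaft keratins, against -0.0014 over all genes tested; the line marks 0.

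Neutrophil attractants rose without exception among those measured, 9 of 9, with a median log2 fold change of 3.50. Cxcl5 and Il6 were among those that met the FPKM minimum only through the MC903 libraries, and could only be counted as higher. Csf2, also listed, stayed under the minimum, at 0.320 or less untreated and 0.208 or less treated. Cxcl5, made by epithelial cells, went from 0.275, 0.169 and 0.144 to 35.1, 49.5 and 46.7 (adjusted p = 6.88e-08), and Cxcl2 from 0.767, 0.583 and 0.0779 to 32.9, 43.3 and 22.0. Ccl3, which also draws monocytes, reached 35.8, 48.4 and 41.5. Il6, a cytokine of acute inflammation on the same list, rose from 0.105, 0.0216 and 0.111 to 5.99, 5.95 and 6.12. The untreated levels of most of these genes correspond to few reads, so their fold changes are imprecise although the groups were far apart. The promoters of Cxcl1, Cxcl2 and Cxcl3, neighbouring genes on chromosome 5, are printed as the 200 bases before the RefSeq start (GRCm38.p6, plus strand), with capitals for each match, on either strand, to the consensus of NF-kappa-B sites.
Cxcl1: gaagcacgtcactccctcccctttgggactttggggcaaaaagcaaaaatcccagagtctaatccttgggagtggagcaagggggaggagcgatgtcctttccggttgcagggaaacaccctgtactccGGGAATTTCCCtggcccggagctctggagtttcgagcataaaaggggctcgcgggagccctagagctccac
Cxcl2: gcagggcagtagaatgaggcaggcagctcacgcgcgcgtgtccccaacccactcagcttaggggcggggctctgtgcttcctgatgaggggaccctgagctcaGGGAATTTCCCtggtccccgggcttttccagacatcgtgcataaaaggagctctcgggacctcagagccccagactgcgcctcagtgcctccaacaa
Cxcl3: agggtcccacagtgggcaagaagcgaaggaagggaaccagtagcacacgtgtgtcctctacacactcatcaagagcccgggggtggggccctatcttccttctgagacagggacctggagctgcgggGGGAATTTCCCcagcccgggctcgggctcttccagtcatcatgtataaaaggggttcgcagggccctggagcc
They lie at chr5:90891045-90891244, chr5:90903699-90903898 and chr5:90785901-90786100, with a pair of overlapping matches that begin 71 and 70 bases before the start of Cxcl1, 97 and 96 before that of Cxcl2 and 73 and 72 before that of Cxcl3. Of 6 attractant promoters listed by RefSeq, 4 held a match, against 6.07% of 32851 promoters. Those of Cxcl1, Cxcl2 and Cxcl3 hold the same matched letters and may not be separate cases in this count. Ccl3 and Ppbp held none in this window and rose.

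Neutrophil markers rose with the attractants, 10 of 11 measured, with none lower and a median log2 fold change of 3.79. Cxcr2, the receptor for these chemokines, read 1.01, 1.44 and 0.951 untreated and 25.8, 37.4 and 37.2 treated (adjusted p = 6.64e-08), and Csf3r, the G-CSF receptor, 1.12, 2.12 and 1.61 and then 22.5, 33.9 and 31.8. Fpr2, a receptor for formyl peptides, went from 0.158, 0.202 and 0.0414 to 6.80, 14 and 10.2, and the granule gene Ngp from 0.0419, 0.0429 and 0 to 1.89, 1.49 and 1.55. Fpr2 and Ngp met the FPKM minimum only through the MC903 libraries, so they could only be counted as higher. Summed over the list the markers stood at an FPKM of 5.86 to 8.85 in untreated and 121 to 177 in treated libraries. The granule genes Elane, Mpo and Ltf and the surface marker Ly6g did not reach the minimum; Ly6g read 0, 0 and 0 untreated and 1.35, 0.352 and 1.32 treated. In a bulk library, here and below, more or fewer cells of a type and more or less RNA per cell cannot be told apart.

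Basophil markers rose in 7 of 8 cases, with a median log2 fold change of 1.68 and summed levels of 68.7 to 75.9 before and 192 to 243 after MC903. The untreated sum comes mostly from genes of the list other than Mcpt8, Prss34 and Cd200r3, which each read 0.709 or less there. Fcer1a stands on both this list and the mast cell list. Mcpt8, a protease that marks mouse basophils, went from 0.0513, 0 and 0.215 to 60.8, 53.5 and 72.1 (log2 fold change 6.74 ± 0.15 (SE), adjusted p = 6.31e-10). Prss34, a second basophil protease, went from 0.126, 0 and 0.0441 to 14.2, 12.8 and 16, and Cd200r3 from 0.479, 0.692 and 0.709 to 4.38, 3.18 and 4.5. Cyp11a1, a steroid synthesis enzyme that basophils and mast cells carry, rose 2.82-fold. Mcpt8 and Prss34 stood on a few reads or none in untreated skin. They met the FPKM minimum only through the MC903 libraries, so they could only be counted as higher.

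Mast cell markers rose in fewer cases, 6 of 13 higher and 1 lower (2 lower without MC903 replicate 3 or after rescaling to TPM) with a median log2 fold change of 0.36. Granule proteases of connective tissue mast cells were abundant in both groups. Mcpt4 read 132, 126 and 123 and then 152, 161 and 173 (adjusted p = 0.051), and the tryptase gene Tpsb2 43.4, 41.7 and 44.1 and then 35.1, 41.2 and 45.8 (adjusted p = 0.73). Mcpt4 passed under 7 of 25 alternative settings, among them the 2 groups labelled knockout fitted alone and limma voom. The chymase gene Cma1 rose by 0.32 on the log2 scale (adjusted p = 0.029), a call lost under both other scalings (adjusted p = 0.39 for TPM) and without each library but MC903 replicate 1 (0.061 to 0.086). The largest increases on the list were in genes that basophils share. Hdc, which makes histamine, rose 16.4-fold to 28.3, 30.6 and 30.2, and Fcer1a, the binding chain of the IgE receptor, went from 0.513, 1.42 and 0.914 to 16.9, 14 and 24.6. Cpa3, a carboxypeptidase of mast cells and basophils, rose from 58.4, 64.2 and 59.0 to 88.8, 92.9 and 103 (adjusted p = 0.002). Tpsg1, a membrane tryptase, was the gene that fell, from 3.21, 3.85 and 3.01 to 1.15, 1.04 and 1.75. The summed mast cell list stood at 326 to 335 untreated and 441 to 511 treated.

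Chemokines for monocytes and other leukocytes rose in 13 of 19 cases and fell in 4. Leaving out 1 of the 6 libraries gave 10 to 13 that rose and 2 to 3 that fell, with 2 without untreated replicate 1. Ccl12 went from 5.05, 3.71 and 2.50 to 69.7, 65.0 and 63.3 (adjusted p = 7.29e-08), Ccl6 rose 8.56-fold and Ccl8, already at 133, 211 and 219, reached 715, 852 and 1351. Ccl7 went from 18.3, 13.7 and 10.1 to 96.1, 104 and 77.8 and Ccl2, the main monocyte attractant, from 4.99, 5.94 and 3.44 to 23.3, 25.4 and 21.7. Those that fell included Ccl22, a ligand of CCR4 on T cells (log2 fold change -1.16 ± 0.16 (SE)), and Ccl27a, a keratinocyte chemokine for skin-homing T cells (-1.58 ± 0.26 (SE)).

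Macrophage genes rose with these chemokines, 15 of 19 with 2 lower (1 lower without any 1 of the libraries other than MC903 replicate 3), at summed levels of 1027 to 1103 untreated and 1586 to 2348 treated. Mrc1, the mannose receptor, rose 4.51-fold, from 32.4, 32.4 and 34.9 to 119, 161 and 169 (adjusted p = 2.15e-06), and Ly6c2, a marker of fresh monocytes, from 0.560, 0.555 and 0.313 to 6.26, 8.08 and 8.26. Itgam, an integrin chain of myeloid cells, rose 5.80-fold and Cd68, a lysosomal protein of macrophages, from 35.1, 38.9 and 38.2 to 83.4, 105 and 106. Lyz1 fell from 51.6, 47.1 and 49.9 to 22.3, 18.0 and 21.7 (adjusted p = 2.95e-04). Of 10 genes of alternative activation 6 rose and 2 fell (1 without any 1 of the libraries other than MC903 replicate 3). Arg1, the enzyme that depletes arginine, rose 46.2-fold to 76.1, 80.5 and 73.0 (adjusted p = 5.31e-08) and Chil3 reached 16, 43.2 and 32.0, while Retnla, another type 2 product, fell from 64.4, 68.8 and 109 to 14.9, 10.4 and 20.0 (log2 fold change -2.38 ± 0.55 (SE)). Chil4, a chitinase-like protein of type 2 inflammation, was listed at 0 in the untreated libraries and at 2.99, 1.57 and 1.61 in the treated ones. It met the FPKM minimum only through the MC903 libraries and could only be counted as higher. Stab1 and Cd209d, receptors of resident macrophages, rose 1.82-fold and 2.21-fold.

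Of 12 genes of MHC class II presentation 4 rose and none fell, with a median log2 fold change of 0.19. Cd74, the invariant chain, read 659.6, 659 and 669 and then 579.7, 632 and 745, and H2-Ab1 226, 225 and 216 and 182, 194 and 243; neither passed. The costimulatory ligands Cd80 and Cd86 rose by 1.42 and 0.99 on the log2 scale. Of 9 measured dendritic and Langerhans cell markers 3 rose, 1 fell (2 without MC903 replicate 3) and 5 did not pass. Their median log2 fold change was 0.23, or 0.04 after rescaling to TPM. Cd207 (langerin), which marks Langerhans cells, fell from 10.6, 10.7 and 10.2 to 4.38, 5.27 and 5.04 (adjusted p = 8.46e-05). Itgax, the dendritic cell integrin, rose from 2.56, 2.34 and 2.28 to 5.52, 6.49 and 7.14 and Ccr7, which guides dendritic cells to lymph nodes, from 1.47, 1.48 and 2.06 to 2.68, 3.80 and 3.80.

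T cell genes rose in 11 of 18 cases and fell in none. Ctla4, a checkpoint receptor of regulatory and activated T cells, rose from 0.703, 0.855 and 0.645 to 3.41, 4.63 and 3.71 (adjusted p = 1.97e-05), and Foxp3, the regulatory T cell factor, from 0.462, 0.394 and 0.363 to 1.62, 2.43 and 1.61. Foxp3 met the FPKM minimum only through the MC903 libraries, so it could only be counted as higher. The costimulator Icos rose 3.84-fold and the IL-7 receptor Il7r 2.72-fold. The receptor complex did not move as 1 group: Cd3d rose by 0.65, and Cd3e and Cd3g did not pass (log2 fold changes 0.13 and -0.10). Cd8a and Cd8b1 stayed under the minimum. Gzmb, a granzyme, rose 10.4-fold (adjusted p = 1.02e-05).

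Of 15 genes listed as type 2 cytokines, their receptors or signal mediators 8 were measured. Of these 7 rose and none fell, with a median log2 fold change of 0.94. Among those that rose were the receptor chains Il4ra, Il2rg, Osmr and Il13ra1 and the signalling gene Stat6. Il4ra, the shared chain of the IL-4 and IL-13 receptors, rose 8.45-fold, from 7.46, 6.86 and 6.31 to 49.1, 65.1 and 60.3 (adjusted p = 1.20e-07), and Osmr, the oncostatin receptor chain that also serves IL-31, 2.67-fold. Il4 read 1.13, 1.5 and 1.22 and then 2.56, 2.53 and 4.01 and rose (log2 fold change 0.97 ± 0.20 (SE)), and Il13 did not pass, at 0.732, 0.827 and 0.359 after MC903. The cytokines Il5, Il9, Il25 and Il31 and the receptor chains Il5ra, Il9r and Il31ra did not reach the minimum in these libraries.

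The IL-1 family rose in 11 of 17 cases and fell in 2. Il1b went from 3.41, 1.98 and 0.873 to 83.7, 119 and 87.1 (adjusted p = 6.75e-06), and Il18rap from 0.515, 0.342 and 0.326 to 8.91, 7.31 and 8.93. The genes that fell were Il1f6 (IL-36 alpha), from 28.6, 31.5 and 25.4 to 6.18, 7.83 and 6.30, and Il1f10 (IL-38), from 12.5, 11 and 9.68 to 1.43, 0.823 and 0.301. Of 14 genes of the IL-17 and IL-20 families 5 rose and 4 fell: the cytokine Il19 went from 1.47, 0 and 0 to 22.6, 30.8 and 27.7 and Il24 from 0.0369, 0 and 0 to 13, 11.6 and 7.72, while the receptor chain Il20rb, which both use, fell 2.98-fold. Il17a, Il17f and Il22 stayed under the minimum. Il24 met it only through the MC903 libraries and could only be counted as higher.

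Interferon response genes rose in 12 of 18 cases and fell in none, with Oas1a rising from 0.896, 1.0 and 1.40 to 3.95, 5.23 and 5.56 (adjusted p = 2.94e-04). This count was 6 without MC903 replicate 2, 7 without untreated replicate 1 or 3 and 7 after rescaling to TPM. Of 13 prostaglandin and leukotriene enzymes 5 rose and 2 fell, with a median log2 fold change of 0.21 (0.04 after rescaling to TPM): Ptgs2, the inducible cyclooxygenase, went from 0.447, 0.549 and 0.481 to 37.2, 36.7 and 26.5 (adjusted p = 2.52e-08) and Ptges, which makes prostaglandin E, rose 5.65-fold, while the degrading enzyme Hpgd fell 3.17-fold. Of the lipoxygenases Alox15 rose from 1.98, 1.92 and 2.17 to 9.52, 7.17 and 11.4, and Alox12e, the epidermal form, fell from 37.4, 43.9 and 33.4 to 9.69, 8.52 and 6.75 (adjusted p = 3.98e-05). Of 16 metalloproteinases and inhibitors 9 rose and 2 fell, with Mmp13, a collagenase, at 0.996, 0.392 and 0.161 untreated and 106, 127 and 65.1 treated. Mmp3 (stromelysin) rose from 33.3, 29.8 and 35.5 to 201, 219.8 and 203 and its inhibitor Timp1 8.07-fold, while the inhibitors Timp2 and Timp3 fell 1.61-fold and 1.59-fold. Of 17 endothelial genes 8 rose and 3 fell: Selp, which slows rolling leukocytes, rose 5.28-fold (adjusted p = 2.72e-07), whereas the junction gene Cldn5 fell 2.36-fold. Lymphatic genes divided: Lyve1 rose from 22.8, 19.4 and 22.4 to 35.6, 44.8 and 45.4, and Prox1 and Flt4 fell by 0.64 and 0.42 on the log2 scale.

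Transcripts of the structures below and around the epidermis were lower. Hair shaft and root sheath keratins fell in 17 of 20 cases, and 3 rose. Krt71, a keratin of the inner root sheath, read 99.3, 41.7 and 45.8 untreated and 12.5, 0.456 and 2.25 treated (log2 fold change -4.16 ± 1.55 (SE), adjusted p = 0.046). That call was lost without MC903 replicate 2 or 3 or any untreated library, with an adjusted p of 0.077 to 0.16. Krt27, its partner, read 67.7, 24.0 and 28.0 and then 5.83, 0.428 and 0.627 (adjusted p = 0.014, and 0.054 without untreated replicate 1 and 0.057 without MC903 replicate 2). Replicate 1 was the highest treated library for 17 of the 17 keratins that fell and the highest untreated library for 15 of them, so the spread within a group was wide. The number that fell was 4 without MC903 replicate 2 or untreated replicate 1, 7 without MC903 replicate 3, 8 without untreated replicate 2, 10 without untreated replicate 3 and 11 by limma voom. Krt36, Krt84 and Krt75, keratins that nail and tongue epithelium or the companion layer also use, rose under each of these settings, Krt36 from 1.29, 1.19 and 1.32 to 159, 169 and 50.5 and Krt84 from 2.48, 1.59 and 1.57 to 106, 117 and 38.4.

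**Figure D4:**
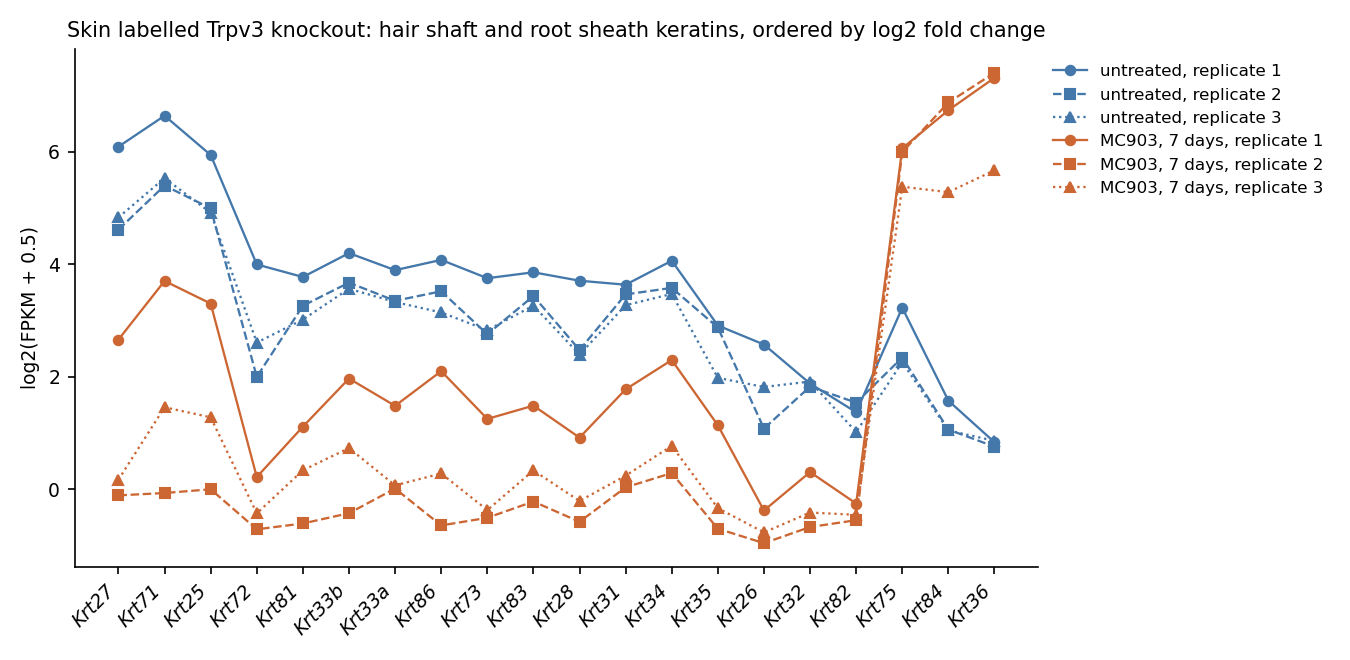
FPKM of the 20 measured hair shaft and root sheath keratins in the 6 libraries labelled knockout, on a log2(FPKM + 0.5) axis; each line joins the values of 1 library across genes. Replicate 1 lies highest among the treated libraries for the 17 keratins that fell, and Krt36, Krt84 and Krt75 lie higher in all 3 treated libraries.

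Keratin-associated proteins, which fill the hair shaft, followed the same course: 31 of 50 fell and 1 rose, with a median log2 fold change of -2.30, and replicate 1 was the highest treated library for 44. Without MC903 replicate 1, 36 fell. Counts without each other library, where that of the hair keratins dropped, were not taken for this group. Follicle regulators fell in 7 of 13 cases and rose in 2. Lhx2 and Lgr5, transcription factor and receptor of follicle stem cells, fell by 1.1 and 0.94 on the log2 scale, and Wnt10b, a signal of the growth phase, went from 1.64, 1.20 and 0.915 to 0.0648, 0.146 and 0.0318 (adjusted p = 1.43e-04). Wnt10b, for one, met the FPKM minimum only through the untreated libraries and could only be counted as lower. Hoxc13, a regulator of hair and nail keratins, rose 5.24-fold, and Tchh, a root sheath protein, read 60.9, 20.8 and 22.4 and then 243, 305 and 195.

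Sebaceous gland genes fell in 11 of 14 cases and rose in none, with a median log2 fold change of -1.20. Scd1, a desaturase that is among the most abundant transcripts of the gland, fell from 2107, 2202 and 2402 to 1134, 793 and 819 (adjusted p = 2.53e-04), and Scd3 from 8.20, 7.37 and 6.36 to 0.651, 0.287 and 0.841. Cidea, a lipid droplet protein, fell 3.20-fold and Far2, a wax synthesis enzyme, 3.52-fold. Paqr7, a membrane progesterone receptor on none of the gene lists, had the sixth lowest log2 fold change among the named genes, from 92.6, 97.1 and 81.7 to 5.68, 5.89 and 6.93 (adjusted p = 1.74e-06). The count stood at 11 or 12 without each of the 6 libraries in turn, under the other scalings and by limma voom.

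Collagens of the dermis fell, 13 of 17 with 1 higher (3 without MC903 replicate 1) and a median log2 fold change of -1.06. Col1a1 went from 1519, 1526 and 1727 to 459, 338 and 434 (log2 fold change -1.96 ± 0.30 (SE), adjusted p = 3.04e-04) and Col1a2 from 845, 859.6 and 989 to 234, 178 and 231. Col4a1, a chain of basement membranes, did not pass (log2 fold change 0.33 ± 0.15 (SE), and 0.44 with an adjusted p of 0.047 without MC903 replicate 1), and Col18a1 rose by 0.37, or by 0.18 after rescaling to TPM (adjusted p = 0.14). Of 18 fibroblast genes outside the collagens 8 fell and 1 rose, with a median log2 fold change of -0.44. None rose without any 1 of the libraries other than MC903 replicate 1, or under the other scalings. Eln (elastin) fell from 289, 266 and 322 to 93.6, 72.5 and 89.6. Dcn (decorin) read 569.8, 584 and 668 and then 491, 449.8 and 520.1 and did not pass. Dcn did pass after rescaling to TPM or by total reads (adjusted p = 0.0081 and 0.045 by limma). It also passed when the 2 groups were fitted alone, with libraries weighted by precision, and without untreated wild type replicate 3. Tnc (tenascin-C) rose 4.07-fold (adjusted p = 1.09e-07), and Sparc fell 2.97-fold. Postn (periostin), often raised in type 2 inflammation, fell from 181, 206 and 206 to 75.7, 69.3 and 86.2 (adjusted p = 3.22e-04), while Spp1 (osteopontin) and Acta2 (smooth muscle actin) rose 3.28-fold and 1.71-fold. Of these 12 wound matrix genes 3 rose and 4 fell.

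Cartilage genes, which a sample can hold where skin is taken from the ear, fell in 10 of 13 cases and rose in none, at summed levels of 509 to 604 untreated and 164 to 214 treated. Acan, the core protein of aggrecan, went from 119, 109 and 127 to 55.0, 49.9 and 51.2 (adjusted p = 5.21e-05) and Col2a1, the cartilage collagen, from 28.6, 25.6 and 26.1 to 6.78, 4.44 and 7.69. The labels used here give no body site. Secreted Wnt antagonists fell in 6 of 8 cases, among them Wif1, from 556, 486 and 649.7 to 258, 224 and 236 (adjusted p = 5.72e-05), and Sfrp1 rose by 0.39 on the log2 scale, or by 0.20 after rescaling to TPM (adjusted p = 0.081).

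Fat, muscle and nerve transcripts were lower too. Adipocyte genes fell in 12 of 14 cases (7 without MC903 replicate 2) and rose in none, at summed levels of 706 to 787 untreated and 282 to 428 treated; Adipoq, which encodes adiponectin, went from 69.8, 72.3 and 84.1 to 32.4, 24.2 and 40.3. Cfd (adipsin) fell from 344, 308 and 349 to 102, 71.7 and 130.0 and the lipid droplet gene Plin1 from 33.4, 27.7 and 29.7 to 12.2, 9.64 and 14.9. Skeletal muscle genes fell in 19 of 22 cases and rose in 1, with summed levels of 2896 to 3830 and 938 to 1428. Actn3, of fast muscle fibres, fell from 49.4, 36.1 and 49.5 to 5.37, 5.49 and 7.30 (adjusted p = 3.39e-05). Pvalb, a calcium buffer of the same fibres, fell from 272, 199 and 308 to 30.1, 28.6 and 55.8, and Mb (myoglobin) from 144, 119.7 and 156 to 55.3, 49.9 and 67.3. Tnni1, the slow fibre troponin, was the gene that rose, from 3.47, 2.42 and 3.24 to 5.16, 6.62 and 4.43 (adjusted p = 0.012, and 0.052 without untreated replicate 2 and 0.056 without MC903 replicate 2). Schwann cell genes fell in 9 of 14 cases and rose in none. Sox10, the Schwann cell and melanocyte factor, fell from 5.79, 5.69 and 6.76 to 2.51, 2.77 and 2.57. How much of these tissues each sample held was not measured separately, and the part it has in these falls was not tested. Of 11 neurotrophic and guidance factors 3 rose and 7 fell (4 without untreated replicate 3). Artn (artemin), a factor for sensory neurons, rose from 0.192, 0.196 and 0.312 to 1.01, 1.04 and 0.831 (adjusted p = 3.69e-04). Artn met the FPKM minimum only through the MC903 libraries and could only be counted as higher.

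Metabolic genes moved in both directions. Of 19 glycolysis genes 9 rose and 4 fell (2 without untreated replicate 3). The widely used Eno1 and Pgk1 rose 2.04-fold and 1.86-fold, and the muscle forms Eno3 and Pfkm fell 2.75-fold and 2.97-fold, beside the lower muscle sum given above. The muscle forms of cytochrome oxidase Cox6a2 and Cox7a1 fell as well (log2 fold changes -1.69 and -1.88), while 15 of 20 nuclear respiratory genes did not pass. Of those 20 genes 4 fell, and 12 fell after rescaling to TPM. Cytosolic ribosomal protein genes rose in 15 of 22 cases, 9 after rescaling to TPM, and fell in none, with Rps6 at 416, 426 and 418 untreated and 756, 756 and 730.2 treated. Immediate early genes were mixed, 3 of 15 higher (5 without untreated replicate 2) and 5 lower: Junb rose 2.18-fold, and Fosb fell from 8.96, 10.4 and 2.80 to 0.291, 0.532 and 0.545. Egr2 fell from 10.1, 12.7 and 8.40 to 3.99, 3.81 and 3.91 (adjusted p = 1.59e-04), and Egr1 from the uneven levels of 16.4, 43.4 and 21.1 to 11.8, 9.80 and 8.59.

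Of the groups not yet named, 13 genes of the mitochondrial genome had 3 that rose, none after rescaling to TPM or without untreated replicate 2 or 3, and 1 without untreated replicate 1 or MC903 replicate 2. Of 19 cholesterol genes 4 rose and 3 fell, and 1 rose and 6 fell after rescaling to TPM; 2 rose without untreated replicate 1 or 3 or MC903 replicate 2. Of 16 keratinocyte transcription factors 4 rose and 3 fell, against 0 and 4 after rescaling to TPM and 1 and 4 after scaling by total reads; 1 rose without untreated replicate 1 or 3 or MC903 replicate 1 or 2, and 2 without untreated replicate 2. Of 8 melanocyte genes 2 rose, and none without any 1 of 5 of the 6 libraries (2 without untreated replicate 1). Among 12 complement components 5 rose and 2 fell (1 without untreated replicate 3): C5ar1, the receptor for C5a, rose 3.13-fold (adjusted p = 2.86e-06) and C3, the central component, from 115, 109 and 119 to 200.3, 248 and 261. Markers of other leukocytes were sparse: 3 of 8 eosinophil and 2 of 7 B cell markers reached the minimum, and 2 eosinophil genes and 2 of 4 cytotoxic genes rose. After rescaling to TPM 1 eosinophil gene also fell. The summed eosinophil list did not rise, at 19.2 to 21.4 untreated and 14.7 to 19.5 treated. Of the B cell genes 1 rose and 1 fell.

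The response was compared with that of wild type skin by the difference of the 2 log2 fold changes, positive where the value was higher in skin labelled knockout. The 2 responses share no libraries. The difference passed for 6779 of the 16235 genes, 3492 positive and 3287 negative, against 39.7% of genes tested (20.0% positive, 19.7% negative). Of these calls 51.5% were positive, and 72.9% of 7304 after rescaling to TPM and 63.2% of 7000 after scaling by total reads, which moved the median difference from -0.0052 to 0.2239 and 0.1144. The untreated wild type libraries were uneven: the array weights of limma, 1 for a library of average precision, were 4.61, 0.455 and 0.218 for their replicates 1, 2 and 3.

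**Figure D5:**
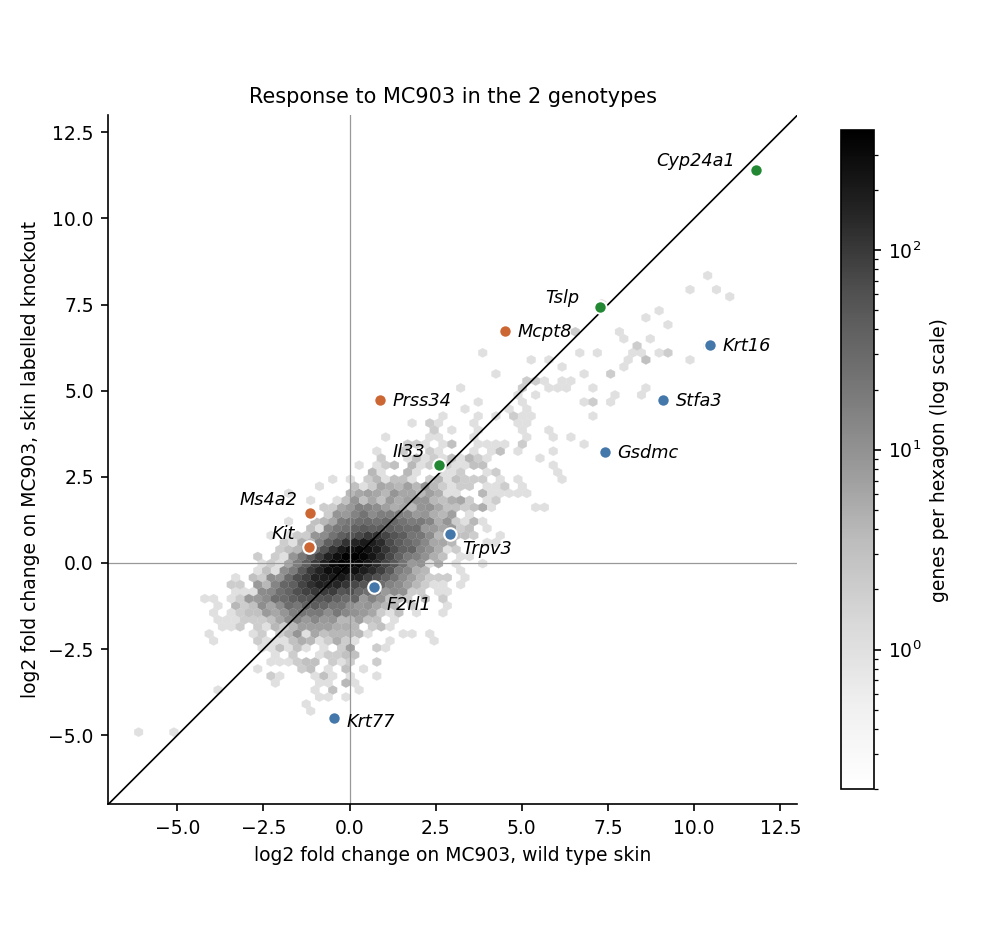
Log2 fold change on MC903 of the 16235 genes in wild type skin (x axis) and in skin labelled knockout (y axis), as counts per hexagon, with named genes as points (orange for a positive and blue for a negative difference that passed, green for none); the diagonal marks equal responses. Krt16, Stfa3, Gsdmc and Trpv3 lie below the diagonal, Prss34, Mcpt8, Ms4a2 and Kit above it, and Tslp, Il33 and Cyp24a1 close to it.

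For the alarmins of the axis the difference was not detectable: it was 0.18 ± 0.47 (SE) for Tslp (adjusted p = 0.79) and 0.26 ± 0.26 (SE) for Il33 (adjusted p = 0.47). It was -2.06 ± 0.32 (SE) for Trpv3 (adjusted p = 6.34e-04), which rose by 2.91 in wild type (adjusted p = 9.54e-07) and by 0.85 in skin labelled knockout, and -1.41 ± 0.29 (SE) for F2rl1 (adjusted p = 0.0034), which rose by 0.70 in wild type (adjusted p = 0.012) and fell in the libraries labelled knockout. The difference was positive for Il1rl1 (1.23 ± 0.30 (SE), adjusted p = 0.0075) and Kit (1.62 ± 0.18 (SE), adjusted p = 1.24e-04). For Kit it was larger than the rise in skin labelled knockout, so the wild type log2 fold change of Kit was negative. For Il1rl1 it was smaller than that rise, so the wild type value of Il1rl1 was positive.

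Epidermal groups had lower log2 fold changes in skin labelled knockout than in wild type skin. The difference was negative and passed for 14 of 14 serine proteases, 19 of 21 Lce genes, 17 of 21 terminal differentiation genes, 12 of 14 Sprr genes and 4 of 4 stress keratins, and was positive for none of these, also after rescaling to TPM (14, 17, 16, 12 and 4). Krt16 had a difference of -4.14 ± 0.72 (SE) (adjusted p = 0.0012), Stfa3 of -4.38 ± 0.35 (SE) and Gsdmc of -4.18 ± 0.31 (SE). Krt77 fell in skin labelled knockout and had a wild type log2 fold change of -0.45, a difference of -4.06 ± 0.58 (SE). Klk6 had a difference of -3.72 and Klk5 of -2.55.

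Some epidermal genes fell in skin labelled knockout and rose in wild type skin. Col7a1 fell by 1.79 in skin labelled knockout and rose by 1.08 in wild type (adjusted p = 1.41e-04, difference -2.87 ± 0.23 (SE), adjusted p = 3.38e-05). Sbsn rose by 1.41 in wild type (adjusted p = 4.33e-04, difference -2.87 ± 0.35 (SE), adjusted p = 1.90e-04), and a difference of this kind was found for Ccl20, a chemokine of dendritic and T cells. Ccl20 read 6.37, 7.89 and 4.16 and then 2.44, 3.47 and 2.59 in skin labelled knockout, a fall that was lost without untreated replicate 1 or 2 or MC903 replicate 1 or 3 (adjusted p = 0.027 with all libraries and 0.070 to 0.10 without these). It rose by 2.68 in wild type (adjusted p = 2.46e-05, difference -3.65 ± 0.45 (SE), adjusted p = 2.03e-04). Chil4 rose in both, by 6.16 in wild type (adjusted p = 3.04e-08) and 2.31 in skin labelled knockout (difference -3.85 ± 0.40 (SE), or -2.71 with an adjusted p of 0.33 by limma voom). The lowest difference belonged to the T cell receptor segment Trbj2-7, a short gene at 2.18, 3.35 and 7.99 untreated and 1.17, 0 and 1.15 treated, which makes its value uncertain (difference -4.38 ± 0.82 (SE)).

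Markers of basophils, mast cells, and monocytes and macrophages had higher log2 fold changes in skin labelled knockout than in wild type skin. The difference was positive and passed for 6 of 8 basophil, 9 of 13 mast cell and 12 of 19 monocyte and macrophage genes. After rescaling to TPM these counts were 6, 9 and 13, and the difference was negative for none in either setting. It was negative for 1 basophil gene by limma voom, without MC903 replicate 3 labelled knockout and without the untreated wild type replicate 3. It was negative for 2 macrophage genes without the last of these. Median log2 fold changes of these lists were 0.68, -0.86 and 0.52 in wild type and 1.68, 0.36 and 1.22 in skin labelled knockout. Of the 10 genes of alternative activation 1 had a positive and 3 a negative difference that passed, with a median of -0.054. Prss34 had a difference of 3.85 ± 0.29 (SE) (adjusted p = 3.13e-05) with a wild type log2 fold change of 0.89, and Mcpt8 of 2.23 ± 0.21 (SE) (adjusted p = 6.33e-05, and 0.057 by limma voom). Ms4a2, the beta chain of the IgE receptor, rose in skin labelled knockout by 1.45 and had a wild type value of -1.15 (difference 2.60 ± 0.26 (SE)). Cd300ld4, a receptor of myeloid cells, had a difference of 3.91 ± 0.36 (SE) and the chemokine Ppbp one of 3.23 ± 0.48 (SE). Schwann cell genes, 13 of 14, and fibroblast genes, 11 of 18, also had positive differences, beside median log2 fold changes of -1.69 and -1.41 in wild type and -0.74 and -0.44 in skin labelled knockout. Myoc, a matrix protein gene, had a difference of 3.07, and the imprinted gene Mest rose by 0.88 in skin labelled knockout against -2.36 in wild type (difference 3.24 ± 0.33 (SE)). In the same direction, Timp3 had a difference of 2.82 ± 0.21 (SE) (adjusted p = 3.13e-05), with log2 fold changes of -3.48 in wild type and -0.66 in skin labelled knockout, and Acta2 one of 1.86 ± 0.20 (SE) (adjusted p = 1.04e-04). None of the 8 type 2 genes had a difference that passed by limma, and 0 of 8 had an unadjusted p below 0.05; none passed under the other scalings or by limma voom.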

How the data were processed

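Poly-A RNA of 12 whole skin libraries, 3 in each of 4 groups, was analysed, and the 3 ganglion samples of the series were not analysed here. FPKM values were deposited by the authors for 54532 genes. The build mm10 and the counter featureCounts come from the submitters' processing notes, and which aligner, annotation release and FPKM program were used is not given in the sources used here. Reads recovered from FPKM and gene length were whole for 100% of values, within 0.01, and the FPKM denominator was 0.917 to 1.11 times their sum per library. The 6 libraries labelled knockout held 17797944 to 18485698 such reads, which sets the precision of low values.

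Genes with an FPKM of at least 0.5 in at least 3 of the 12 libraries were fitted on log2(FPKM + 0.5) with limma 3.58.1 in R 4.3.3 (4 group means, 8 residual degrees of freedom, moderated variance with a trend), in 1 fit with contrasts for the response in skin labelled knockout, for that in wild type skin and for their difference. Tests were two-sided, with Benjamini-Hochberg adjustment over 17646 genes and a threshold of 0.05. A fold change on this scale understates the change of low genes. Printed folds are ratios of mean FPKM. The fit was tested on simulated counts with known changes.

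The genes described and the gene lists were chosen with earlier results of these data known. Genes were named by rule: the axis genes and Cyp24a1, the 15 genes that rose most and the 15 that fell most on the log2 scale, among genes that passed, reached a mean FPKM of 1 in either group, had no value shared by the ranges of both groups and bore no clone-like or predicted name, up to 5 passing members of each list by adjusted p, passing members that went against their list, and the 5 largest passing differences in each direction under the same conditions. Ccl8, Cd3d, Cd3e, Cd3g, Cd74, Cd8b1, Cma1, Col2a1, Col3a1, Col4a1, Cxcl1, Cxcl2, Dcn, Egfr, H2-Ab1, Il13, Il17a, Il4, Klk7, Krt5, Krt8, Krt10, Mcpt4, Mki67, Rxrb, Scd1, Spink5, Sprr1a, Sprr2d, Tpsb2 and Vdr were named outside that rule, after their values were seen, and some genes that the rule names are not reported here. Alternatives were other pseudocounts, filters, scalings, variance models and gene sets, limma voom on the recovered reads, which called 8361 of the 16235 genes, the replicate number as a block, a 2-fold minimum, the 2 groups labelled knockout alone, and leaving out each library. Motifs were searched in RefSeq promoters of build GRCm38.p6; the NF-kappa-B consensus replaced a narrower pattern after that had been searched. Python 3.11.15, pandas 2.3.3 and matplotlib 3.10.9 made tables and figures.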

Additional observations from a re-analysis of the deposited data

Results flagged for a closer look

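Groups of 3 libraries are too small for a test of single outlying libraries. The response to MC903 differed between skin labelled knockout and wild type skin by a limma test of the difference itself for 215 of the 358 genes named by the rule, with 98 positive and 117 negative differences of the log2 fold changes, against 39.7% of all genes tested (20.0% positive, 19.7% negative). The rule chose some of these genes for the size of that difference, so nothing is read from the count. Of 26 genes whose difference is printed singly 24 passed, and the groups above hold more. The differences of the 24 were positive for Cd300ld4 (3.91), Prss34 (3.85), Mest (3.24), Ppbp (3.23), Myoc (3.07), Timp3 (2.82), Ms4a2 (2.60), Mcpt8 (2.23), Acta2 (1.86), Kit (1.62) and Il1rl1 (1.23). They were negative for Stfa3 (-4.38), Trbj2-7 (-4.38), Gsdmc (-4.18), Krt16 (-4.14), Krt77 (-4.06), Chil4 (-3.85), Klk6 (-3.72), Ccl20 (-3.65), Col7a1 (-2.87), Sbsn (-2.87), Klk5 (-2.55), Trpv3 (-2.06) and F2rl1 (-1.41).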

How the results depend on the processing

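Over all alternatives that kept the same call rule, 6682 to 9989 genes passed for the MC903 response in skin labelled knockout and 5583 to 8745 for the difference between genotypes. With a change of at least 2-fold also required, 2249 and 2665 genes passed. Leaving out each of the 12 libraries gave 6682 to 9098 genes for the response and 5583 to 7763 for the difference. Of the 246 named genes 232 passed and 218 passed under every alternative other than the 2-fold minimum; of 26 named differences 24 passed and 22 did so under every such alternative. Signs reversed for a few values, none of which passed. Leaving out 1 library gave -0.13 to 0.050 for Cd74 (above 0 without MC903 replicate 1), -0.18 to 0.014 for Tpsb2 (likewise) and -0.039 to 0.61 for the difference of Tslp (below 0 without MC903 replicate 2 labelled knockout or wild type MC903 replicate 1 or 2). Egfr read -0.031 after rescaling to TPM. The cause of these moves was not tested.

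With the replicate number as a block 8305 genes passed for the response and 6825 for the difference. The numbers were not taken to pair the libraries, since the deviations of same-numbered untreated and MC903 libraries correlated by 0.046, 0.055 and 0.094, although each library correlated best with its own number. Under the block Krt10 passed (adjusted p = 0.029) and Krt71 did not (0.064). Depth limits the genes at a few reads in untreated skin, whose fold changes are imprecise.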
